A study of Mus musculus with 16 samples.

Results

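The genes of the proteasome were followed in striatal RNA of 16 mice, all harvested at 13 months of age. Members were all gene rows whose symbol is Psma, Psmb, Psmc, Psmd, Psme or Psmg followed by a number, without the interferon-inducible catalytic subunits Psmb8 and Psmb9. The rule found 45 of the 24421 gene symbols in the deposited count tables, and it used no measured value. Of these, 43 had enough reads to be tested, and Psma8 and Psmb11 did not. Control mice received a control virus (Con+Con) or a virus that overexpresses the forkhead transcription factor Foxp2 (Con+Foxp2). Mice of the BACHD genotype received the same viruses (BACHD+Con, BACHD+Foxp2), and each group held 4 mice. BACHD is a Huntington disease model: a bacterial artificial chromosome brings in a full-length mutant human huntingtin gene. Nothing in the sources used here gives the virus type, its promoter, the cells it reaches, the time from injection to harvest or the background strain. A single genotype label and a single virus label describe each group, and no other allele or treatment is named.

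The proteasome is the protease that degrades proteins tagged with ubiquitin in the cytosol and nucleus. Its core particle is a barrel of alpha rings, which gate the entrance, and beta rings, which hold the catalytic sites. A regulatory particle caps the barrel: its base unfolds substrates with a ring of ATPases and carries ubiquitin receptors, and its lid removes the ubiquitin chain. Alternative activators can cap the barrel in place of the regulatory particle, and dedicated chaperones assemble the parts without staying in the finished complex. In neurons the proteasome is studied in Huntington disease because mutant huntingtin accumulates in ubiquitin-containing inclusions, and its genes are known to be induced together through the transcription factor Nfe2l1, which binds antioxidant response elements in their promoters. The members comprised 17 core genes (8 alpha, 9 beta), 6 base ATPases, 3 base non-ATPases, 8 lid genes, 4 activator genes and 7 assembly chaperones.

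Promoter sequence is printed for 4 members that the results describe in detail and whose window holds a searched motif: Psmb5 and Psmb6, catalytic subunits of the core, Psmc5, an ATPase of the base, and Psme1, a subunit of an interferon-inducible activator. Each stretch runs from 120 bases before to 30 bases after the RefSeq start on GRCm38.p6, and capitals mark the searched motif. The capitals are the antioxidant response element TGACNNNGC in Psmb5 (chr14:54617966-54618115, minus strand) and in Psmb6 (chr11:70525237-70525386, plus strand). They are the core CCGGAA bound by ETS factors in Psmc5 (chr11:106256065-106256214, plus strand) and the core TTTCNNTTT of the interferon-stimulated response element in Psme1 (chr14:55578374-55578523, plus strand).
Psmb5: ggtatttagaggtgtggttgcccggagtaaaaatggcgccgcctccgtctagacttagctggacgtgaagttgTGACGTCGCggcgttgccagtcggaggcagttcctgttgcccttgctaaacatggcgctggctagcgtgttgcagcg
Psmb6: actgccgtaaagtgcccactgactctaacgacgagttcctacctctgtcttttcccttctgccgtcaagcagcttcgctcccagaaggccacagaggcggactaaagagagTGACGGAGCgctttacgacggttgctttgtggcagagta
Psmc5: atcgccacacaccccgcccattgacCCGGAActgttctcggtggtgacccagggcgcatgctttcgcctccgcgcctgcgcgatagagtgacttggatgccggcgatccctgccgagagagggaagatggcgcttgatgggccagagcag
Psme1: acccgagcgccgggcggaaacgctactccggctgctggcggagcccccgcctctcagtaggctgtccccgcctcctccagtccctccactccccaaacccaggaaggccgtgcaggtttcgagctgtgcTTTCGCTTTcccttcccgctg

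Promoter windows of 300 bases, 250 before to 50 after the start, were found in the RefSeq table for 37 of the 45 members. The names without an entry were Psma8, Psmb1, Psmb2, Psmb7, Psmc3, Psmd3, Psmd7 and Psmg2. Both strands were searched, and each motif is set beside its share in the windows of 10256 tested genes. The ETS core CCGGAA stood in 18 of 37 member windows (48.65%) against 26.64% of tested genes. The antioxidant response element TGACNNNGC stood in 6 (16.22%: Psmb5, Psmb6, Psmc6, Psmd12, Psmd9 and Psme4) against 14.61%. The interferon core TTTCNNTTT stood in 6 (16.22%: Psmb3, Psmd11, Psmd4, Psmd9, Psme1 and Psmg4) against 7.225%. The palindrome TGCGCA of nuclear respiratory factor stood in 6 (16.22%) against 14.24%, the CCAAT box of NF-Y in 13 (35.14%) against 37.9%, and the TATA box TATAAA in 3 (8.108%) against 6.65%. The forkhead motif TGTTTAC, of the kind Foxp2 binds, was in 0 of 37 member windows and in 2.321% of tested genes. No motif is contained in another. The median GC content was 57.33% in member windows and 61.33% in those of tested genes. Matches of letters are descriptions of these windows only.

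Libraries held 2660395 to 3669748 reads assigned to genes, 22.5% to 24.7% of the listed reads, so that 3 reads correspond to 0.816 to 1.15 CPM (the gene reads scaled to a common library size with trimmed mean of M values). Foxp2 checked the virus label: it was at 117 ± 26.6 CPM in Con+Con, 3999 ± 428 in Con+Foxp2, 118 ± 28.5 in BACHD+Con and 1589 ± 287 in BACHD+Foxp2 (mean ± SD, n = 4 mice). With the Foxp2 virus, Foxp2 ran from 3486 to 4371 CPM in control mice and from 1286 to 1922 in BACHD mice. In the genotype comparison under that virus and in the interaction, genotype and Foxp2 level cannot be told apart. The markers of striatal projection neurons were present in all 16 libraries, 11 of 11. Cortical excitatory neuron markers, which a striatal dissection can carry along, summed to between 289 and 1920 CPM, and the 3 libraries lowest in them were BACHD+Con mice 2 and 3 and Con+Con mouse 4. The summed interferon response list of 17 genes was at 116 to 174 CPM under the control virus and at 191 to 252 CPM under the Foxp2 virus, and the 12 microglial markers at 258 to 340 and 332 to 411 CPM. With the Foxp2 virus, 10 of 12 tested interferon genes were higher in control mice and 11 of 12 in BACHD mice, and microglial markers 9 and 12 of 12. Projection neuron markers were lower in 11 of 11 and 10 of 11 (median log2 fold change -0.46 and -0.23), and cortical markers higher in 10 and 11 of 12 (0.44 and 0.74). Astrocyte markers were higher in 8 and 7 of 10. Oligodendrocyte markers were lower in 10 of 10 in control mice (-0.38) and higher in 8 of 10 in BACHD mice (0.078), and the interaction was above 0 for 10 of 10 (0.47). These are counts by sign, and in each list at most 1 gene was called in either comparison. In BACHD mice the 1 called cortical marker fell, against the sign of most of its list. There 1 microglial and 1 astrocyte marker were called, and both rose. With the virus averaged over both genotypes, 3 astrocyte markers, 1 microglial marker and 1 interferon gene were called and rose. In that comparison 1 cortical marker was called and fell, and 0 projection neuron and 0 oligodendrocyte markers were called, beside 1.05% of all tested genes. The part of these lists in the results was not tested. In bulk tissue, fewer cells of a type and less RNA per cell cannot be told apart.

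Proteasome gene expression was at a similar level in all 4 groups. The 45 genes together summed to 2096 ± 42.7 CPM in Con+Con, 2050 ± 67.1 in Con+Foxp2, 2092 ± 97.8 in BACHD+Con and 2055 ± 111 in BACHD+Foxp2 (SD, n = 4). Per mouse the sum was 2145, 2112, 2082 and 2045 CPM in the Con+Con mice, 2093, 1967, 2114 and 2025 in Con+Foxp2, 2189, 1997, 2162 and 2019 in BACHD+Con and 2116, 2179, 1984 and 1940.0 in BACHD+Foxp2. The groups overlapped throughout, and the 4 differences between group means were 2.21% or smaller. No member was called in any of the 7 comparisons tested.

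With the Foxp2 virus in control mice, 0 of 43 members were called by edgeR's quasi-likelihood test at a Benjamini-Hochberg adjusted p under 0.05, where 0.229% of the 13563 tested genes were called. The unadjusted p was under 0.05 for 0 members (7.04% of all genes), and DESeq2 called 0 with 0 at that unadjusted level. With the Foxp2 virus in BACHD mice 0 were called by edgeR (0.243% of all genes), 1 had an unadjusted p under 0.05 (7.73% of all genes), and DESeq2 gave the same counts of 0 and 1. The BACHD genotype under the control virus gave 0 called members by edgeR (0.0147% of all genes), with 1 at an unadjusted p under 0.05 (3.44%) and again 0 and 1 by DESeq2. Under the Foxp2 virus the genotype gave 0 called by edgeR (0.059% of all genes), with 0 at the unadjusted level by either tool (4.18% of all genes by edgeR). The interaction of genotype and virus gave 0 called members by edgeR (0% of all genes), 0 at the unadjusted level (3.8%), and 0 and 0 by DESeq2. Averaged over both genotypes, the virus gave 0 called members by edgeR (1.05% of all genes), with 2 at the unadjusted level (10.8% of all genes), Psmb6 and Psmc5, and 0 and 2 by DESeq2. Averaged over both viruses, the genotype gave 0 called by edgeR (0.0369% of all genes), with 0 at the unadjusted level (4.05%) and 0 and 1 by DESeq2. In the authors' deposited tables, which cover 3 of these comparisons, 0 of 43 members had an adjusted p under 0.05, and the lowest were 0.774 for Psmb10, 0.876 for Psmb6 and 0.9998 for Psma1.

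The size of change that remained possible was bounded for most members. The 95% interval of the log2 fold change lay within 2-fold in both directions for 34 of 43 members in the virus comparison in control mice, 35 in that in BACHD mice, 35 in the genotype comparison under the control virus and 37 under the Foxp2 virus. The same held for 66.42%, 65.77%, 68.32% and 67.89% of the 11736 genes in the members' range of expression. Within 1.5-fold the counts were 23, 23, 25 and 22 members, beside 31.54%, 30.25%, 34.01% and 32.98% of those genes. For the averaged comparisons, 40 members lay within 2-fold for the virus and 38 for the genotype, beside 82.15% and 84.23% of those genes. The interaction was less sharp, with 29 members within 2-fold and 11 within 1.5-fold, beside 47.14% and 12.33% of those genes. Biological variation between mice of a group was 18% for the median member and 24.23% for the median gene of the same range, and it ran from 11.36% for Psmd1 to 54.73% for Psmb3. The mice of the 2 compared groups separated without overlap for 0 of 43 members in each of the 4 pairwise comparisons, and for 5.01%, 4.14%, 2.43% and 3.01% of all tested genes.

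**Figure D1:**
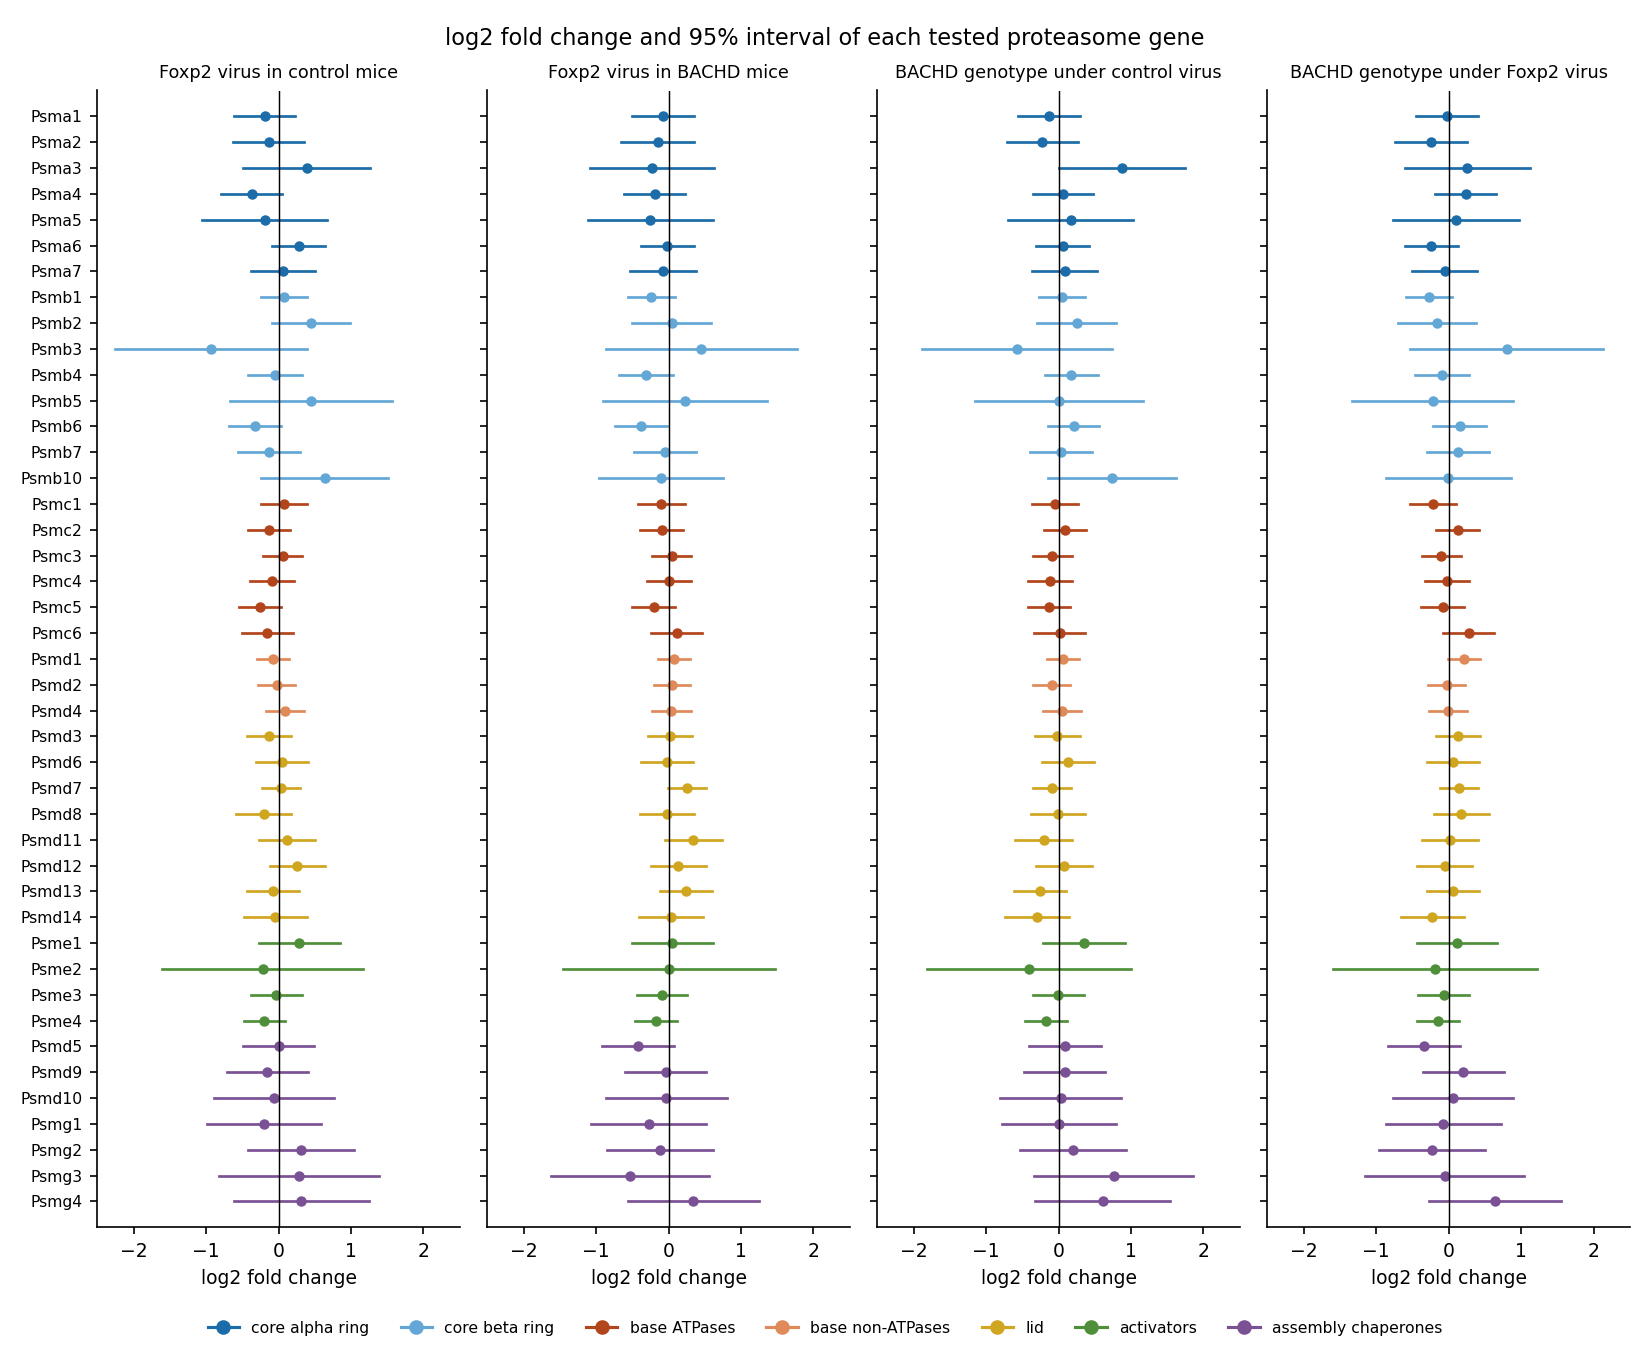
Each point is the log2 fold change of 1 of the 43 tested proteasome genes in 1 of the 4 comparisons between 2 groups of 4 mice, and its line is the 95% interval, coloured by subcomplex. Of the 172 intervals, 170 include 0, and the exceptions are Psmb6 with the Foxp2 virus in BACHD mice and Psma3 with the BACHD genotype under the control virus.

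The core particle summed to 479, 510.4, 446 and 435 CPM in the Con+Con mice, 471, 448, 486 and 449.5 in Con+Foxp2, 515, 451, 519 and 501 in BACHD+Con and 499, 472, 408 and 409.9 in BACHD+Foxp2. The low end of BACHD+Foxp2 came from mice 3 and 4, and mice 1 and 2 of that group overlapped the others. As means, the core was at 467 ± 34.3, 464 ± 18.3, 496 ± 31.2 and 447 ± 45.7 CPM in the same order of groups. In BACHD mice the core mean was 9.89% lower with the Foxp2 virus than with the control virus, and under the control virus it was 6.22% higher in BACHD than in control mice. Both differences include the BACHD+Con mice, so they are not independent. The median log2 fold change of the 15 tested core members was -0.10 with the Foxp2 virus in BACHD mice (12 lower, 3 higher, 7 of 7 alpha ring genes lower), beside 0.00082 over all tested genes. It was -0.27 without the 3 libraries lowest in cortical markers, which leaves 2 BACHD+Con mice, and -0.023 without BACHD+Foxp2 mouse 3. In control mice the virus gave a core median of -0.047 (8 lower, 7 higher). The genotype gave 0.063 under the control virus (12 higher, 3 lower) and -0.021 under the Foxp2 virus (6 higher, 9 lower), and the first of these was -0.016 without Con+Con mouse 4. The median in control mice ran from -0.070 to 0.022 over the alternatives tried, and that of the genotype under the Foxp2 virus from -0.071 to 0.089, so neither has a stable sign.

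Set against the regulatory particle, which joins base and lid, the core's summed CPM was 35.7, 38.3, 33.4 and 32.8% of the regulatory particle's in the Con+Con mice, 35.5, 36, 36.4 and 34.4% in Con+Foxp2, 37.7, 36.2, 38.3 and 40.8% in BACHD+Con and 37.5, 33.2, 30.6 and 32.4% in BACHD+Foxp2. By summed CPM the groups overlapped: BACHD+Con mouse 2 was below Con+Con mouse 2, which lay inside the BACHD+Con range. The mean was 38.2% ± 1.92 in BACHD+Con and 33.4% ± 2.94 in BACHD+Foxp2, and BACHD+Foxp2 mouse 1 was inside the BACHD+Con range. Control mice had 35.1% ± 2.48 and 35.6% ± 0.848 with the control and the Foxp2 virus. As mean log2 CPM of the tested core genes minus that of the regulatory particle, Con+Con and BACHD+Con did not overlap. They ran from -1.81 to -1.60 and from -1.59 to -1.47, and the facing edges were -1.603 and -1.590. Taken singly, 2.43% of all tested genes did not overlap between these 2 groups. A mean of log2 CPM gives each gene equal weight, also those of few reads. Among these, Psma3 and Psmb10 had log2 fold changes of 0.88 and 0.74 between these groups, and Psmb3 had -0.58. In this measure Con+Foxp2 ran from -1.74 to -1.54 and BACHD+Foxp2 from -1.81 to -1.51, and both overlapped BACHD+Con. No test was made of this ratio in either measure, because a score over the members has none here. The regulatory particle alone was at 1333 ± 7.51, 1302 ± 41.8, 1299 ± 71.5 and 1339 ± 64.1 CPM.

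**Figure D2:**
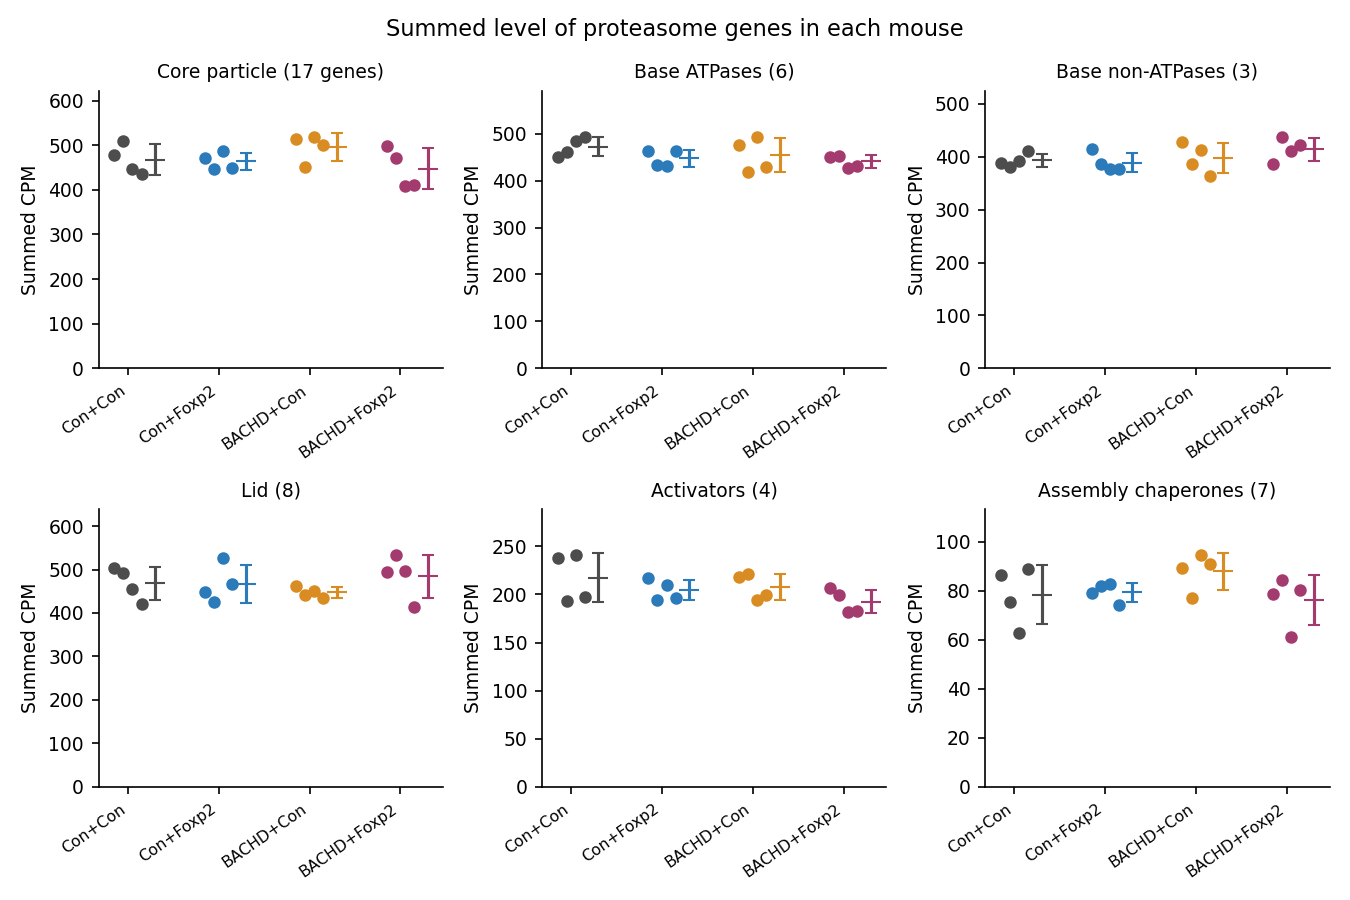
Each point is the summed CPM of the genes of a subcomplex in 1 mouse, with the group mean ± SD (n = 4) beside the points and axes that start at 0. Groups overlap in every panel: the core runs from 408 to 519 CPM, the lid from 413 to 533 and the activators from 182 to 241.

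Psmb6, the caspase-like catalytic subunit, had the lowest p of the members in the virus comparisons. It was at 50.8, 53.2, 43.6 and 51.9 CPM in the 4 Con+Con mice, 40.1, 29.7, 44.6 and 45.4 in Con+Foxp2, 63.7, 52.6, 55.6 and 58.8 in BACHD+Con and 42.3, 58.1, 37.4 and 40.04 in BACHD+Foxp2. The means were lower with the Foxp2 virus in both genotypes, but Con+Foxp2 mice 3 and 4 reached the lowest Con+Con mouse, and BACHD+Foxp2 mouse 2 lay inside the BACHD+Con range. The log2 fold change was -0.32 ± 0.17 (SE) in control mice and -0.37 ± 0.17 in BACHD mice, with adjusted p of 0.775 and 0.615 by edgeR. Averaged over both genotypes it was -0.35 ± 0.12, with an unadjusted p of 0.00943 and an adjusted p of 0.244 by edgeR's quasi-likelihood test. Without BACHD+Foxp2 mouse 2 the value in BACHD mice was -0.54, with an adjusted p of 0.361.

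Psmb7, the trypsin-like catalytic subunit, was at 46.1, 34.3, 32.4 and 31.9 CPM in the 4 Con+Con mice, 33, 23.8, 40.9 and 34.5 in Con+Foxp2, 44.5, 27.3, 34.8 and 42.6 in BACHD+Con and 41.9, 40.8, 31.9 and 30.2 in BACHD+Foxp2. Con+Con mouse 1 stood above the other Con+Con mice, and all groups overlapped. Its log2 fold change with the Foxp2 virus in control mice was -0.13 ± 0.21 and turned to 0.014 without Con+Con mouse 1. Psmb5, the chymotrypsin-like subunit whose promoter is printed above, gave few reads, 5 to 34 per library, and was at 6.17, 9.62, 1.60 and 2.22 CPM in the 4 Con+Con mice, 8.34, 5.87, 4.29 and 8.43 in Con+Foxp2, 4.80, 4.28, 5.36 and 5.38 in BACHD+Con and 4.74, 11.1, 4.80 and 2.54 in BACHD+Foxp2. Mice differed by several-fold within Con+Con and within BACHD+Foxp2 and less within the other groups, and its 95% interval ran from -0.67 to 1.57 with the virus in control mice and from -1.15 to 1.16 with the genotype under the control virus. A 2-fold difference in Psmb5 therefore lies within the error of these libraries.

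Psmb10, the inducible subunit that takes the place of Psmb7 in immunoproteasomes, was at 13.8, 4.81, 7.69 and 7.79 CPM in the 4 Con+Con mice, 14.8, 14, 12.9 and 11.7 in Con+Foxp2, 17.8, 4.94, 11.7 and 23.1 in BACHD+Con and 13.1, 23.2, 10.6 and 6.36 in BACHD+Foxp2. Con+Con mouse 1 fell within the range of Con+Foxp2, and the BACHD groups spread from 4.94 to 23.2 CPM. The log2 fold change was 0.64 ± 0.42 with the virus in control mice (adjusted p = 0.861, edgeR) and 0.74 ± 0.42 with the genotype under the control virus (adjusted p = 0.9999, edgeR). Psmb8 and Psmb9, the inducible subunits outside the rule, were at 2.18 ± 1.45, 4.04 ± 3.11, 2.61 ± 1.7 and 4.55 ± 2.26 CPM and at 0.819 ± 0.346, 1.47 ± 0.8288, 1.12 ± 1.58 and 1.3 ± 1.03 CPM in the group order Con+Con, Con+Foxp2, then the BACHD groups likewise. Psmb9 did not pass the low-count filter, and Psmb8 had an adjusted p of 0.606 by edgeR for the virus over both genotypes. Both are also on the interferon response list, whose summed level separated the virus groups in the same mice.

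**Figure D3:**
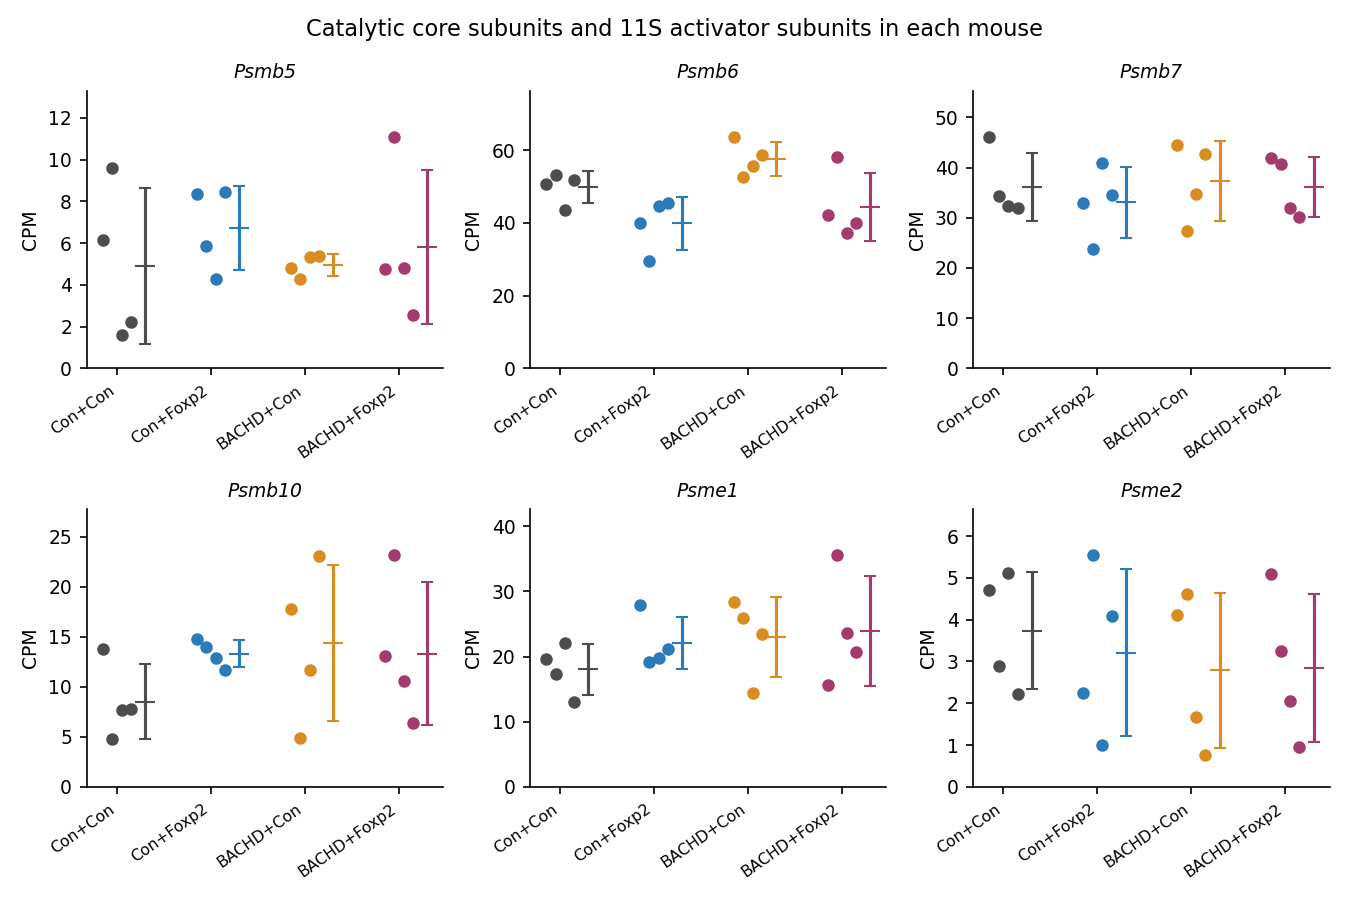
Each point is the CPM of the named gene in 1 mouse, with group mean ± SD (n = 4) beside the points and axes from 0. Psmb6 runs from 29.7 to 63.7 CPM, and Psmb5 and Psme2 stay below 12 CPM with mice of every group intermingled.

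Among the other core genes, Psma3, of the alpha ring, had the only unadjusted p under 0.05 in a genotype comparison by edgeR with the main settings. It was at 5.88, 2.56, 9.61 and 3.71 CPM in the 4 Con+Con mice, 6.42, 8.47, 8.91 and 4.89 in Con+Foxp2, 10.3, 8.23, 11.4 and 10.4 in BACHD+Con and 13.1, 8.16, 4.80 and 8.26 in BACHD+Foxp2. The BACHD+Con mice sat above 3 of the 4 Con+Con mice, and Con+Con mouse 3 lay inside their range. The log2 fold change was 0.88 ± 0.42, with an unadjusted p of 0.0493 and an adjusted p of 0.9999 by edgeR. It came from 8 to 36 reads per library, and leaving out Con+Con mouse 2 gave 0.64, mouse 3 of that group 1.3. For the genotype under the control virus, 0 members had an unadjusted p under 0.05 by edgeR with RLE size factors. The same held without the low-count filter and with only the groups compared. The count was 1 with the replicate block and with DESeq2, and 2 without the 3 libraries lowest in cortical markers. Psma4, also of the alpha ring, was at 39.1, 35.3, 43.9 and 43.8 CPM in the 4 Con+Con mice, 38.8, 24.1, 38.3 and 24.5 in Con+Foxp2, 36, 45.7, 45.5 and 41.9 in BACHD+Con and 49.9, 29.4, 38.1 and 30.8 in BACHD+Foxp2. Con+Foxp2 mice 2 and 4 were low, and mice 1 and 3 matched the Con+Con range, for a log2 fold change of -0.37 ± 0.20 (adjusted p = 0.785, edgeR). Psmb1, a structural beta ring subunit, was at 73.5, 78.2, 62.2 and 60.8 CPM in the 4 Con+Con mice, 78, 71, 84.5 and 57.4 in Con+Foxp2, 82.2, 69.1, 69.6 and 62.2 in BACHD+Con and 66.3, 59, 64.8 and 50.5 in BACHD+Foxp2, with overlap in every comparison.

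Psmb3, a structural beta ring subunit named here after its values were seen, had the largest log2 fold change of any member in the 4 pairwise comparisons. It was at 9.11, 8.34, 4.49 and 3.34 CPM in the 4 Con+Con mice, 0.642, 5.87, 4.62 and 2.18 in Con+Foxp2, 2.74, 7.24, 5.69 and 1.15 in BACHD+Con and 10.2, 2.28, 4.80 and 6.04 in BACHD+Foxp2. These are 2 to 31 reads per library, and mice of a group differed by several-fold. Its log2 fold change was -0.93 ± 0.64 with the virus in control mice, with an adjusted p of 0.867 by edgeR and an interval from -2.26 to 0.40. The remaining tested core genes, Psma1, Psma2, Psma5, Psma6, Psma7, Psmb2 and Psmb4, had means over the 16 mice of 7.77 CPM (Psma5) to 53.3 CPM (Psma7), and their groups overlapped in all 4 comparisons. Psma8, the alpha subunit of spermatogenic cells, had 16 reads over all libraries, 13 of them in 1 library. Psmb11, the beta subunit of thymic cortical epithelium, had 24 reads, at most 8 in a library.

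The base of the regulatory particle differed by at most 5.17% (ATPases) and 6.48% (non-ATPases) between compared group means. Its 6 ATPases summed to 472, 447, 454 and 441 CPM and its 3 non-ATPases to 393, 389, 398 and 414 CPM as group means. Psmc5, an ATPase of the unfolding ring, was at 82.3, 93.6, 115 and 120.1 CPM in the 4 Con+Con mice, 85, 84.4, 76.6 and 97.9 in Con+Foxp2, 86.7, 85.6, 106 and 96.4 in BACHD+Con and 85.6, 91.7, 78.5 and 69.9 in BACHD+Foxp2. Con+Con mice 3 and 4 were high and the Foxp2 virus groups lay within or below the range of the others. The log2 fold change was -0.26 ± 0.14 in control and -0.20 ± 0.14 in BACHD mice, and -0.23 ± 0.10 averaged, with an unadjusted p of 0.033 and an adjusted p of 0.402 by edgeR. Psmc6, another ATPase of the ring, was at 56.7, 57.4, 68.9 and 53.4 CPM in the 4 Con+Con mice, 53.3, 47.3, 43.3 and 68.3 in Con+Foxp2, 59.6, 68.8, 62.9 and 47.3 in BACHD+Con and 70.7, 51.9, 68.6 and 66.7 in BACHD+Foxp2, and its largest difference was 0.28 ± 0.17 for the genotype under the Foxp2 virus. The other ATPases, Psmc1, Psmc2, Psmc3 and Psmc4, had means of 56.3 CPM (Psmc4) to 104 CPM (Psmc3) and overlapped in all 4 comparisons.

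Psmd1, the large scaffold of the base, varied least between mice of a group and was at 174, 163, 181 and 195 CPM in the 4 Con+Con mice, 180.0, 163, 167 and 163 in Con+Foxp2, 184, 191, 203 and 164 in BACHD+Con and 172, 219, 194 and 196 in BACHD+Foxp2. BACHD+Foxp2 mice 2, 3 and 4 were above all Con+Foxp2 mice, and mouse 1 was not. Its log2 fold change for the genotype under the Foxp2 virus was 0.21 ± 0.11, with an interval from -0.01 to 0.44 and an adjusted p of 0.998 by edgeR. Psmd2, the scaffold that docks ubiquitin shuttles, was at 94.6, 117, 102 and 107 CPM in the 4 Con+Con mice, 115, 95.2, 109 and 93 in Con+Foxp2, 103, 91.1, 107 and 90.7 in BACHD+Con and 108, 108, 98.7 and 91.2 in BACHD+Foxp2. Its 4 pairwise intervals lay between -0.35 and 0.30, all inside 1.5-fold. Psmd4, a ubiquitin receptor, was at 119, 102, 111 and 108 CPM in the 4 Con+Con mice, 120.0, 128, 101 and 119.9 in Con+Foxp2, 140.1, 105, 102 and 109 in BACHD+Con and 106, 111, 118 and 134 in BACHD+Foxp2, and its intervals lay between -0.26 and 0.35.

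The lid medians were small in all 4 pairwise comparisons. The lid summed to 505, 491, 456 and 420.1 CPM in the Con+Con mice, 447, 425, 527 and 466 in Con+Foxp2, 463, 441, 449.9 and 435 in BACHD+Con and 495, 533, 496 and 413 in BACHD+Foxp2. BACHD+Foxp2 mice 1, 2 and 3 were above the 4 BACHD+Con mice, and mouse 4 was below them. The median log2 fold change of the 8 lid genes with the Foxp2 virus in BACHD mice was 0.083 (6 higher, 2 lower), and it was -0.052 without BACHD+Foxp2 mouse 2. It was -0.0065 with the virus in control mice (4 higher, 4 lower; 0.048 when Con+Con mouse 1 was left out), -0.053 for the genotype under the control virus (2 higher, 6 lower) and 0.057 under the Foxp2 virus (6 higher, 2 lower). No test of a difference between lid and core was made. The interaction medians were 0.17 for the lid and -0.14 for the core, beside 0.010 over all tested genes, and 0 of these 23 genes had an unadjusted interaction p under 0.05 by edgeR.

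Psmd7, the lid subunit that pairs with the deubiquitinase, was at 92.6, 85, 83 and 80.8 CPM in the 4 Con+Con mice, 86.9, 89.6, 93.1 and 79.1 in Con+Foxp2, 76.1, 89.2, 76.3 and 79.5 in BACHD+Con and 98.8, 80.6, 112 and 93.1 in BACHD+Foxp2. BACHD+Foxp2 mice 1, 3 and 4 were above every BACHD+Con mouse, and mouse 2 was inside their range. The log2 fold change was 0.26 ± 0.13, with an unadjusted p of 0.0536 and an adjusted p of 0.651 by edgeR. Psmd11, the lid subunit that clamps the lid to the core, was at 31.2, 27.6, 34.9 and 28.2 CPM in the 4 Con+Con mice, 31.1, 26.1, 38 and 37.3 in Con+Foxp2, 29.1, 23.7, 29.8 and 23.1 in BACHD+Con and 40.1, 27.4, 34.3 and 32.4 in BACHD+Foxp2, with a log2 fold change of 0.34 ± 0.19 in the same comparison (adjusted p = 0.725, edgeR) and overlap through BACHD+Foxp2 mouse 2. Psmd14, the deubiquitinase itself, was at 61.4, 71.2, 36.5 and 38.9 CPM in the 4 Con+Con mice, 44.9, 41.1, 61.7 and 54.4 in Con+Foxp2, 45.6, 39.5, 48.5 and 36.1 in BACHD+Con and 42.3, 54.8, 41.5 and 34.6 in BACHD+Foxp2. Con+Con mice 1 and 2 were the highest or near it, mice 3 and 4 were near the lowest, and all groups overlapped. The other lid genes, Psmd3, Psmd6, Psmd8, Psmd12 and Psmd13, had means of 46.7 CPM (Psmd13) to 83.4 CPM (Psmd3) and overlapped throughout.

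The activators summed to 238, 193, 241 and 198 CPM in the Con+Con mice, 217, 195, 210.0 and 196 in Con+Foxp2, 218, 221, 194 and 199 in BACHD+Con and 206, 199, 182 and 183 in BACHD+Foxp2. All groups overlapped, with means of 217 ± 25.5, 204 ± 10.7, 208 ± 13.6 and 192 ± 12.2 CPM. The median log2 fold change of the 4 genes was -0.11 and -0.041 with the virus in control and BACHD mice, and -0.087 and -0.11 for the genotype under the control and the Foxp2 virus. The first was 0.025 without Con+Foxp2 mouse 3, and the second and the last were 0.076 and 0.022 without BACHD+Foxp2 mouse 3.

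Psme4 and Psme3 had the most reads of the activators, a ranking that does not account for length. Psme4, the large nuclear activator, was at 119, 109, 133 and 105 CPM in the 4 Con+Con mice, 115, 92.9, 114 and 85.7 in Con+Foxp2, 112, 105, 99.1 and 98.4 in BACHD+Con and 99.1, 81.6, 110.1 and 75.9 in BACHD+Foxp2. Its log2 fold change lay between -0.20 and -0.15 in the 4 comparisons, each with an SE of 0.14, and no adjusted p by edgeR was under 0.842. Psme3, the nuclear activator of the gamma type, was at 94.6, 63.5, 80.1 and 77.5 CPM in the 4 Con+Con mice, 71.5, 76.9, 75.6 and 85.4 in Con+Foxp2, 74, 85.9, 78.7 and 76.8 in BACHD+Con and 86.4, 78.6, 45.9 and 85.2 in BACHD+Foxp2. BACHD+Foxp2 mouse 3 was the lowest of the 16, and the virus difference in BACHD mice was -0.09 with it and 0.087 without it. Psme1, the alpha subunit of the interferon-inducible activator, with the interferon core in its printed promoter stretch, was at 19.7, 17.3, 22.1 and 13 CPM in the 4 Con+Con mice, 27.9, 19.2, 19.8 and 21.2 in Con+Foxp2, 28.4, 26, 14.4 and 23.4 in BACHD+Con and 15.7, 35.6, 23.7 and 20.7 in BACHD+Foxp2. All groups overlapped, and its log2 fold change was 0.29 ± 0.27 with the virus in control mice and 0.05 ± 0.27 in BACHD mice. The partner subunit Psme2 was at 4.70, 2.89, 5.13 and 2.22 CPM in the 4 Con+Con mice, 2.25, 5.54, 0.991 and 4.08 in Con+Foxp2, 4.11, 4.61, 1.67 and 0.768 in BACHD+Con and 5.10, 3.26, 2.06 and 0.953 in BACHD+Foxp2, from 2 to 17 reads per library, and its 95% interval reached past 2-fold in both directions in 3 of the 4 comparisons and in 1 direction in the other. The adjusted p of Psme1 for the virus in control and BACHD mice was 0.915 and 0.987 by edgeR. Of the 12 tested genes of the interferon list, 0 were called in either of those comparisons, although the list's summed level did not overlap between the virus groups. With the virus averaged over both genotypes, 1 of the 12 was called and rose.

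The assembly chaperones had the lowest summed CPM of the roles and summed to 86.4, 75.3, 62.8 and 89 CPM in the Con+Con mice, 78.9, 81.8, 82.5 and 74 in Con+Foxp2, 89.4, 77, 94.4 and 90.7 in BACHD+Con and 78.7, 84.5, 61 and 80.4 in BACHD+Foxp2. The log2 fold change for the genotype under the control virus was above 0 for 7 of 7, beside 50.11% of all tested genes. Its median was 0.088, beside 0.00054 over all tested genes. The 7 values ran from 0.0039 to 0.76, and 0 of 7 had an unadjusted p under 0.05 by edgeR. With the Foxp2 virus in BACHD mice 6 of 7 were below 0, where 50.18% of all tested genes were above 0. That comparison shares the BACHD+Con mice. Psmd5, which chaperones the base, was at 30.6, 27.6, 16.7 and 39.3 CPM in the 4 Con+Con mice, 29.2, 25.4, 35 and 24.5 in Con+Foxp2, 32.2, 25.3, 36.2 and 27.3 in BACHD+Con and 20.8, 26.4, 16.5 and 26.7 in BACHD+Foxp2. BACHD+Foxp2 mice 1 and 3 were low, and the virus difference in BACHD mice was -0.42 ± 0.24 (adjusted p = 0.740, edgeR). Psmg4, which helps to build the alpha ring, was at 3.82, 4.17, 3.84 and 3.34 CPM in the 4 Con+Con mice, 5.45, 5.87, 2.97 and 4.62 in Con+Foxp2, 4.45, 3.95, 8.37 and 6.53 in BACHD+Con and 8.38, 5.87, 5.14 and 10.2 in BACHD+Foxp2. The genotype averaged over both viruses gave 0.63 ± 0.31 for Psmg4, with an unadjusted p of 0.0587 and an adjusted p of 0.999 by edgeR, from 9 to 32 reads per library. The others, Psmd9, Psmd10, Psmg1, Psmg2 and Psmg3, had means of 5.98 CPM (Psmg3) to 14.3 CPM (Psmd9) and overlapped throughout.

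Levels of different genes can be compared only per length, here as mean CPM over the 16 mice per kb of the union of GENCODE M21 exons. The median of the 43 tested members was 14.8 CPM per kb, from 1.78 for Psme2 to 65.3 for Psmc5 (chromosome 11, 106256154 to 106263120, plus strand, GRCm38). By that length the base ATPases had the highest median among the roles with more than 3 genes, 32.1 CPM per kb, followed by the lid with 16.8, the beta ring with 12.6, the alpha ring with 12.4, the activators with 11.1 and the chaperones with 5.49. Subunits present in equal number in the finished core spanned a wide range per length, from 2.01 (Psma3) to 42.9 (Psma6) in the alpha ring and from 2.14 (Psmb3) to 25.6 (Psmb6) among beta ring genes. These values depend on the length used. Per kb of the longest coding sequence the median member was at 43.9 CPM, and the highest was Psme3, an activator, at 101.43, while the base ATPases reached at most 77.0. Among the roles with more than 3 genes, the medians by that length were 53.2 for the base ATPases, 49.04 for the lid, 46.4 for the alpha ring, 38.9 for the beta ring, 23.9 for the activators and 14.7 for the chaperones. The 3 base non-ATPases had a higher median, 63.6, and reached 100.81 with Psmd4. The ATPases and the lid were therefore closer, and the alpha ring stood above the beta ring. Psme1 was at 29.1 and Psme4 at 18.7 CPM per coding kb, while Psme4 was at 12.3 and Psme1 at 9.85 per kb of exon.

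Some members share exact sequence with other genes, and the deposited gene counts leave out reads with more than 1 alignment, which made up 33.8% to 37.2% of the listed reads. The share of a gene's 50-base stretches that also occur in transcripts of another GENCODE gene was over 10% for 9 tested members: Psma3, Psma4, Psma5, Psmb3, Psmb5, Psmc1, Psmd2, Psmd9 and Psme2. It was highest for Psmb5 (54.07%) and Psma5 (49.96%), whose leading partners are processed pseudogenes, and it was 28.27% for Psme2, whose leading partner is Psme2b. Those 9 had a median of 5.88 CPM per kb, and the other 34 had 16.7, although Psma4, Psmc1 and Psmd2 of the 9 were above the median of all members. Levels of these 9 are uncertain, and the part of the shared sequence in them was not tested. Without the 9, the median log2 fold change of the members was -0.036, -0.027, 0.042 and -0.022 in the 4 pairwise comparisons, beside -0.043, -0.028, 0.041 and -0.021 with them.

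**Figure D4:**
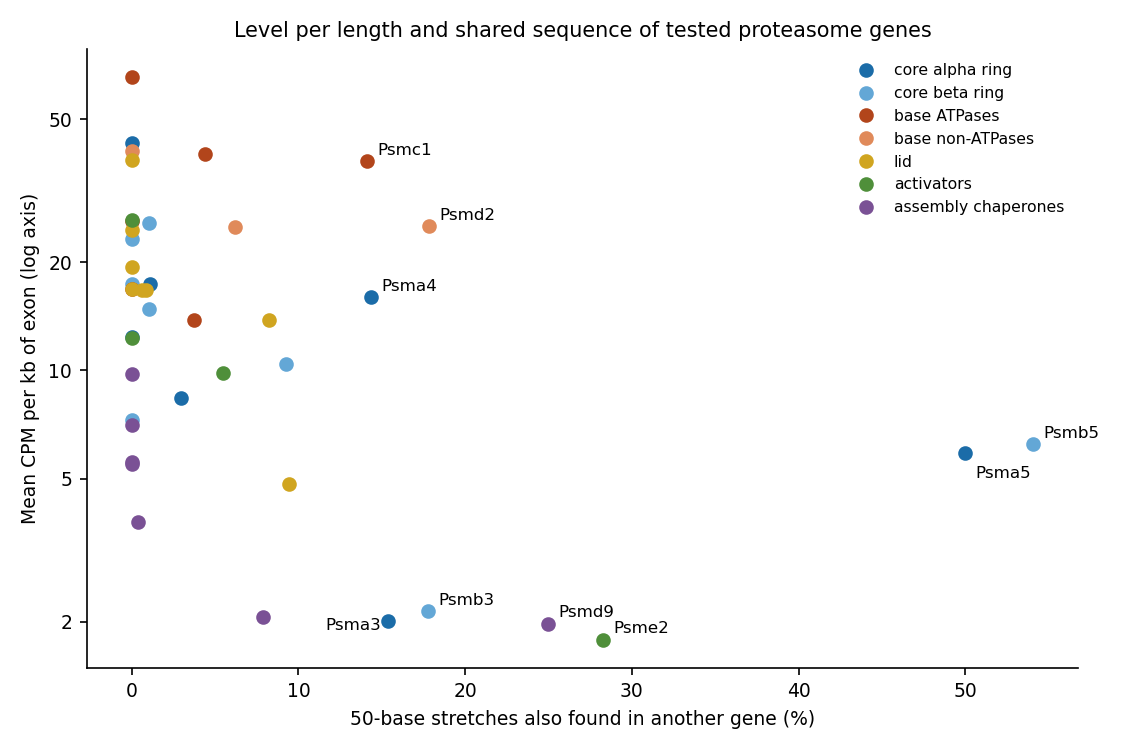
Each point is 1 of the 43 tested members: the horizontal axis is the percentage of its 50-base stretches also found in another gene, and the vertical log axis its mean CPM per kb of exon over 16 mice. The 9 named members lie beyond 10%, with Psmb5 and Psma5 farthest to the right and Psme2 lowest.

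The 45 members lie on 16 chromosomes, with 8 on chromosome 11 and 6 on chromosome 14. Psme1 and Psme2 lie on opposite strands of chromosome 14 with 5912 bases between their facing ends, and Psmb5 and Psmb11 start 3411 bases apart. An oppositely directed protein-coding gene starting within 1 kb, upstream of the member or just inside it, was found for 8 members. Examples are Psmc5 beside Ftsj3 at 75 bases and Psmb1 beside Tbp at 137 bases. Starts further inside a member were not counted, such as Sirt3 in Psmd13 at 341 bases and AY074887 in Psma4 at 208 bases. Exons of 11 members overlap those of another gene, among them Psmb7 with Nek6 over 405 bases and Psmd13 with Sirt3 over 342. Nothing used here says whether counting took strand into account, and values of such pairs are uncertain to that extent.

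Other genes of the pathway, from lists of named genes, gave no call either. Of 11 tested proteasome genes outside the rule, 15 regulators and delivery factors and 4 ubiquitin and E1 genes, 0 were called by edgeR or DESeq2 in the 7 comparisons. At an unadjusted p under 0.05 by edgeR, the other proteasome genes gave 2 with the virus in BACHD mice and 1 with the genotype under the control virus, the regulators 3 with the genotype averaged over both viruses, and the ubiquitin genes 1 each with the virus in BACHD mice and averaged, and DESeq2 gave the same counts. Over all genes these shares were 7.73% for the virus in BACHD mice, 3.44% and 4.05% for the 2 genotype comparisons and 10.8% for the averaged virus. Adrm1, a ubiquitin receptor of the base, was at 11.6 ± 4.41, 11 ± 1.55, 18.9 ± 6.15 and 10.6 ± 1.32 CPM, the control mice first and within each genotype the control virus first. The lowest BACHD+Con mouse (13.1) stood above the highest BACHD+Foxp2 mouse (12), as these groups stood apart for 4.14% of all tested genes. The log2 fold change of Adrm1 between them was -0.83 ± 0.32 with an adjusted p of 0.487 by edgeR. Psmf1, a proteasome inhibitor, was at 22.6 ± 5.24, 24.3 ± 1.84, 20.02 ± 2.94 and 28.7 ± 6.44 CPM, with 0.52 ± 0.22 in BACHD mice and an adjusted p of 0.581.

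Nfe2l1, the factor that induces proteasome genes when the proteasome is impaired, was at 341 ± 30.7, 313 ± 13.2, 347 ± 25.8 and 326 ± 50.7 CPM in the same order. Its log2 fold changes lay between -0.12 and 0.06 in the pairwise comparisons, each with an SE of 0.11. Pomp, the chaperone of beta ring assembly, was at 51.4 ± 6.15, 45.1 ± 3.92, 56.4 ± 10.7 and 55.2 ± 16.6 CPM. Usp14, a deubiquitinase that binds the base, was at 54.3 ± 15.3, 60.7 ± 7.17, 66.8 ± 13.5 and 55.8 ± 5.45 CPM. For Nfe2l1, Pomp and Usp14 the lowest adjusted p by edgeR over the 4 pairwise comparisons was 0.8287.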

How the data were processed

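Striatal RNA of 16 mice was sequenced, 4 per group, and the authors deposited 1 table of whole read counts per gene and mouse, not normalized. Per the submitters' processing notes, the tools were STAR (2.4.0), HTSeq and DESeq2, with genome build mm10. The authors also deposited 3 tables of comparisons, whose log2 fold changes and p-values were only set beside those computed here. RNA came from an RNeasy lipid tissue kit and libraries from SMARTer chemistry, per the labels' protocols.

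Counts were tested with edgeR 4.0.16 (R 4.3.3) by the quasi-likelihood test, 1 fit of 16 libraries (12 residual degrees of freedom), TMM scaling, filterByExpr and Benjamini-Hochberg adjustment over 13563 genes, called under 0.05. The script was tested on simulated data. The 5 summary lines stayed out of library sizes. The value of 3 reads in CPM covers counting error only, since reads carry no molecular identifiers. The 95% intervals of fold changes come from the quasi-likelihood fit and include the spread between mice. No 2 of the 120 library pairs were identical.

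Positions and lengths are GENCODE M21 (GRCm38, which is mm10), and promoters are RefSeq's. Genes given mouse by mouse are any called member, the 2 tested members of lowest unadjusted p over the 4 pairwise comparisons in each of 7 subcomplexes, and a panel (Psmb5, Psmb6, Psmb7, Psmb10, Psme1, Psme2, Psme3, Psme4, Psmd4, Psmd14, Psmd11). From the pathway lists the text names called genes, Psmb8, Psmb9, Pomp, Adrm1, Psmf1, Nfe2l1 and Usp14. Members and lists were chosen with earlier results of these data known. Alternatives were RLE size factors, no low-count filter, a replicate block, only the groups compared, DESeq2 1.42.0, leaving out each mouse, leaving out the 3 libraries lowest in cortical markers and, chosen after seeing the data, leaving out members with shared sequence.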

Additional observations from a re-analysis of the deposited data

Results flagged for a closer look

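Of the 108 groups of 4 mice looked at, 1 had a mouse far from the other 3, where chance alone flags about 1 in 20. It was Psmb7 in Con+Con mouse 1, at 46.139 CPM, with the other Con+Con mice between 31.9 and 34.3 CPM.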

How the results depend on the processing

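The count of called members was 0 in all 119 repeats of the 7 comparisons, the replicate block, DESeq2 and each mouse left out among them. The replicate block called 0 members in every comparison. Replicate numbers were not used to pair the mice, since the labels do not say what they mark. The correlation of same-numbered mice ran from -0.168 to 0.102 over 24 pairs, and whether the numbers mark a batch was not tested. Calls over all genes moved with the setting: in the order of the 4 pairwise comparisons, DESeq2 called 87, 66, 3 and 15 genes against 31, 33, 2 and 8 by edgeR, and 4, 249 and 8 against 0, 143 and 5 for the interaction and the averages. Without the low-count filter the first and second counts were 75 and 53, and 3 for the interaction. With the 3 libraries of lowest cortical marker level left out they were 21 and 6, and 61 for the averaged virus.

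Of 303 repeats of the medians, 301 moved by less than the SD between mice of the set's mean log2 CPM. That SD was 0.085 for the members, 0.127 for the core, 0.123 for the lid and 0.256 for the activators. The medians themselves were smaller than it, so this count does not show that their signs were stable. The exceptions were the core median with the Foxp2 virus in BACHD mice, -0.268 without the 3 libraries, and the lid median in that comparison, from -0.052 to 0.20 with 1 mouse left out at a time. Of 294 repeats of named gene values, 3 changed sign: Psmb7 with the virus in control mice ran from -0.25 to 0.014 (0.00098 without Con+Foxp2 mouse 2), and Psme3 with the virus in BACHD mice from -0.17 to 0.087. The lowest adjusted p of any was 0.361. Depth limits members of few reads, such as Psmb5, Psmb3 and Psme2.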
